A study of Caenorhabditis elegans with 4 samples.

Results

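The regions described here are the JUN-1::GFP peaks that the authors called on chromosome IV of Caenorhabditis elegans, taken as every row of their combined peak list whose chromosome is IV. They number 642 of 4152 combined peaks. A peak is a stretch of genome that a peak caller marked as enriched after chromatin immunoprecipitation with sequencing (ChIP-seq), and each row gives its first base, its last base and a q-value, the caller's p-value adjusted for the number of regions tested. Coordinates refer to build WS180 of WormBase. No annotation of that build was used, so no gene is named for a region and no sequence is shown.

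JUN-1 is the worm relative of the Jun subunit of AP-1, a pair of basic leucine zipper proteins that bind DNA together, and AP-1 factors are best known for changing transcription in response to stress and growth signals. C. elegans chromosomes are holocentric, which means that spindle attachment runs along their length and no single centromere interrupts them. The autosomes have a centre with dense, conserved genes and little recombination, and arms that are richer in repeats. Chromosome IV is also known for carrying most of the genes for the small 21U-RNAs, the piRNAs of the worm, whose positions were not compared with the peaks here.

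The study had 4 libraries, 2 titled ChIP and 2 titled input, and the peak lists come from the ChIP libraries. All were from hermaphrodites of strain OP234 at the L4 larval stage, grown at 20 °C, with the unc119(ed3) allele and the transgene wgIs234, in which T24H10.7 (jun-1) carries TY1, EGFP and FLAG tags and which was introduced by bombardment of a plasmid with an unc119 marker. The listed genotype names no change at the native jun-1 gene, and all libraries share this 1 strain. The sample descriptions go against the titles: the antibody stands with the libraries titled input, and those titled ChIP read only input DNA. Groups were taken from the titles, and the contradiction was not tested. Nothing in the labels says that the replicates were separate cultures, so the spread between them may be technical. The files give no read counts, so the depth behind a peak is unknown, and no value of the input libraries was used here as a background.

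On IV the replicate 1 list held 332 peaks, the replicate 2 list 636 and the combined list 642. These made up 17.8% of the replicate 1 list (95% interval 16.1 to 19.6), 15.4% of the replicate 2 list (14.3 to 16.5) and 15.5% of the combined list (14.4 to 16.6). Intervals here are exact (Clopper-Pearson) and cover counting error only. The replicate 1 peaks covered 147 kb of IV, the replicate 2 peaks 327 kb and the combined peaks 326 kb, or 1.87% of the called span of 17.4 Mb in the combined list. That span ran from base 51150 to base 17472321, the first and last called bases over the 3 lists. The combined list mostly repeats replicate 2 on this chromosome. Of its 642 peaks, 418 (65.1%, 61.3 to 68.8) were identical to a replicate 2 peak in both ends and in q, and 500 of 623 matched pairs had the same q. None of the 309 pairs matched with replicate 1 did. On IV the combined list is therefore not evidence separate from replicate 2. Identical peaks were not counted on the other chromosomes, so these shares are not shown to be particular to IV.

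Replicate 1 supported about as many of the IV peaks as it left without a partner, and replicate 2 supported nearly all of them. Sharing was counted as an overlap of at least 1 bp. Of the 642 combined peaks, 309 (48.1%, 44.2 to 52.1) overlapped a replicate 1 peak, against 42% over the whole combined list, and 624 (97.2%, 95.6 to 98.3) overlapped a replicate 2 peak, against 97.9% over the whole list. Both replicates supported 307 peaks (47.8%), against 41.9% over the whole list. Replicate 2 alone supported 317, replicate 1 alone 2, and neither replicate 16. Between the replicate lists themselves, 322 of 332 replicate 1 peaks on IV (97%, 94.5 to 98.5) had a replicate 2 partner, against 97.6% over the whole replicate 1 list. In the other direction 309 of 636 replicate 2 peaks on IV (48.6%, 44.6 to 52.5) had a replicate 1 partner, against 42.1% over the whole replicate 2 list. The share of combined peaks with a replicate 1 partner was 48.1% on IV, 41.9% on II, 52.9% on III, 46.2% on V and 48.4% on X, and 47.9% over all chromosomes but IV and I. On I it was 24% (248 of 1034 peaks), which lowers the share over the whole list. These shares were not tested against each other, since neighbouring peaks are not independent.

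Support from replicate 1 followed the strength of a peak. Strength here means −log10 of the authors' q, used to order peaks within 1 list only. All 100 of the strongest IV peaks in the combined list had a replicate 1 partner, as did 91 of the next 100, against 118 of the remaining 442 (26.7%, 22.6 to 31.1). With the peaks in 4 groups of equal size by q, the strongest group had a partner in 154 of 161 cases (95.7%), the next in 107 of 160 (66.9%), the third in 34 of 160 (21.2%) and the weakest in 14 of 161 (8.7%). Replicate 2 supported every peak of the stronger 2 groups and 147 of 161 (91.3%) of the weakest. The 307 peaks found in both replicates had a median −log10 q of 10.1 (quartiles 7.02 and 15.3) and a median width of 484 bp. The 317 found in replicate 2 only had medians of 4.56 (4.05 and 5.65) and 296 bp, and the 16 found in neither had 3.79 and 255 bp. The quartile ranges of the first 2 of these groups did not overlap in −log10 q. Here and for width below, support was counted on IV only, so these shares are not shown to be particular to IV.

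**Figure D1:**
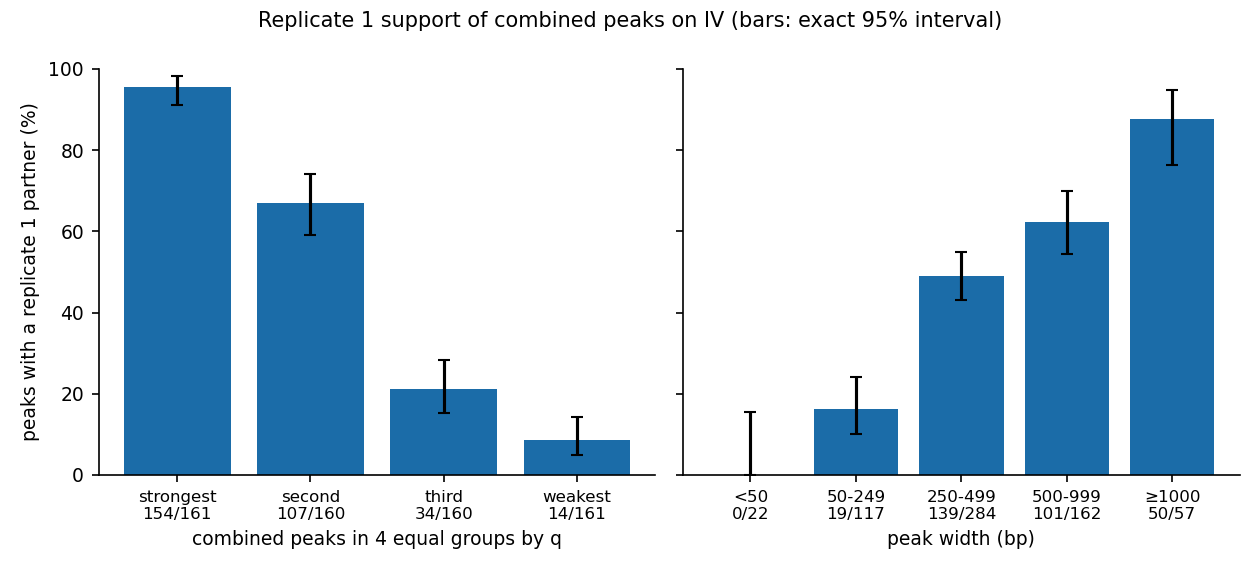
Share of combined peaks on IV that overlap a replicate 1 peak, in %, in 4 groups of equal size by q-value (left) and by width in bp (right); bars are exact 95% intervals and the counts stand under each column. The share is 95.7% in the strongest group and 8.7% in the weakest, and 0 of 22 peaks under 50 bp had a partner against 50 of 57 peaks of 1000 bp or more.

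The first peak of IV stood further down the combined list than that of any other chromosome. It was at place 41 of the whole combined list, at place 39 of replicate 1 and at place 41 of replicate 2, whereas the first combined peaks of I, II, III, V and X were at places 8, 17, 12, 1 and 2. The smallest combined q was 2.05e-80 on IV, 1.98e-155 on III and 2.27e-294 on V. Of the 100 strongest combined peaks 9 were on IV, 16 on I, 7 on II, 21 on III, 10 on V and 37 on X. Of the 500 strongest 67 were on IV, 127 on I, 43 on II, 86 on III, 85 on V and 92 on X. Over the whole combined list the shares were 15.5% on IV, 24.9% on I, 8.91% on II, 15.9% on III, 18.5% on V and 16.2% on X. The median −log10 q was 6 on IV, 6.08 on I, 6.27 on II, 6.12 on III, 5.97 on V and 6.38 on X. These are descriptions with no test.

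The 20 named regions are the combined IV peaks with the smallest q among those found in both replicates. They lay in 13 of the 18 bins of 1 Mb, with 9 in the left, 5 in the central and 6 in the right of 3 equal parts of the span. They were wide, with a median of 1314.5 bp (403 to 4876 bp) in the combined list, and 12 of them reached 1000 bp. Replicate 1 gave the matched regions a median of 690.5 bp and replicate 2 a median of 1319 bp. Of the 20, 15 were among the 20 strongest IV peaks of replicate 1 and 19 among those of replicate 2. The replicate 2 count was largely set by the choice of regions, since 15 of the 20 had the same q in replicate 2 as in the combined list.

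The top region, at IV:14032639-14034865, was 2227 bp wide with a combined q of 2.05e-80. It was the strongest IV peak of both replicates, 2126 bp wide with a q of 2.76e-37 in replicate 1 and 2217 bp wide with a q of 4.82e-81 in replicate 2. No other combined peak lay within 18650 bp of it. Its ends differed by at most 73 bp between the 3 lists, so the 2 replicates called nearly the same interval.

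The region at IV:8430926-8433297 was 2372 bp wide in the combined list and in replicate 2, with a q of 2.11e-59 in both. In replicate 1 it was 1797 bp wide, with a q of 1.48e-30, and ranked at 4 on IV. At IV:11593279-11594888 the peak was 1610 bp wide, against 1381 bp in replicate 1 and 1900 bp in replicate 2, and ranked at 8 on IV in replicate 1. That at IV:3232661-3234859 was 2199 bp wide, against 2041 bp in replicate 1 and the same 2199 bp in replicate 2, and ranked at 6 in replicate 1. All 3 were thus single, wide intervals in every list.

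Some strong regions were narrow. One at IV:17249669-17250071 spanned 403 bp with a q of 3.27e-43, and 374 bp in replicate 1 (q = 3.51e-22, rank 9 on IV) and 407 bp in replicate 2 (the combined q). That at IV:1094115-1094550 spanned 436 bp (385 bp in replicate 1, rank 11) and that at IV:4749814-4750390 spanned 577 bp (602 bp in replicate 1, rank 5). The last of these was the only one of the 20 that was wider in replicate 1 than in the combined list. Another, at IV:654489-655438, spanned 950 bp, but 357 bp in replicate 1, where it ranked at 2 on IV with a q of 3.14e-33. A small q on IV was therefore not confined to wide peaks.

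The remaining named regions started at 12032185 (694 bp), 2601921 (1079 bp), 13388548 (1428 bp), 17278189 (1201 bp), 9444347 (807 bp), 8527379 (767 bp) and 2219121 (770 bp), besides 5 that replicate 1 called in pieces. Of these 7, the region at 2601921 ranked at 3 in replicate 1 and the region at 13388548, also called in pieces there, at 23.

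Some of the broadest regions of the combined list were called as several peaks in replicate 1. The widest peak on IV, at IV:291410-296285, was 4876 bp wide (q = 3.01e-50) and 4895 bp in replicate 2 (q = 1.31e-49). Replicate 1 had 3 peaks inside it, at 291460 to 292474 (q = 1.3e-16), 294395 to 294969 (q = 1.96e-05) and 295652 to 296260 (q = 2.36e-06), which together covered 45.1% of it. A second such region, at IV:324016-326911 and 2896 bp wide, likewise held 3 replicate 1 peaks, which covered 67.7% of it and ranked at 89 or lower on IV, against a rank of 16 for the combined peak. IV:4013497-4016058 (2562 bp) held 2, which covered 32.7%, the region at IV:10934746-10937112 (2367 bp) held 2, which covered 52.9%, and the region at IV:11955242-11956758 (1517 bp) held 2, which covered 72.9%. In all, 11 combined peaks on IV (1.71%) held 2 or more replicate 1 peaks, and 6 of these were among the 20 named regions. No replicate 1 peak held 2 or more peaks of replicate 2 or of the combined list.

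The other 2 of the 5 widest peaks overlapped a single replicate 1 peak each. The second widest, at IV:1458174-1461331, was 3158 bp wide in the combined list and in replicate 2 and 1286 bp in replicate 1. The peak at IV:14611920-14614630 was 2711 bp wide, against 1164 bp in replicate 1 and 2683 bp in replicate 2. Over all 309 peaks matched between the replicates, the median width was 362 bp in replicate 1 and 492 bp in replicate 2, and replicate 2 was the wider in 285 pairs. Midpoints of matched peaks differed by a median of 32 bp. Replicate 2 peaks were thus wider around nearly the same midpoints.

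Matched peaks were ordered much alike by the replicates. Across the 309 matched peaks, ranked within each replicate, Spearman's rho was 0.81 for −log10 q and 0.80 for width. Both are given as a description, since peaks of 1 list are not replicates. Of the 20 strongest matched peaks of each replicate, 14 were the same. On III rho for −log10 q was 0.87 over 351 matched peaks and on V 0.77 over 354.

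**Figure D2:**
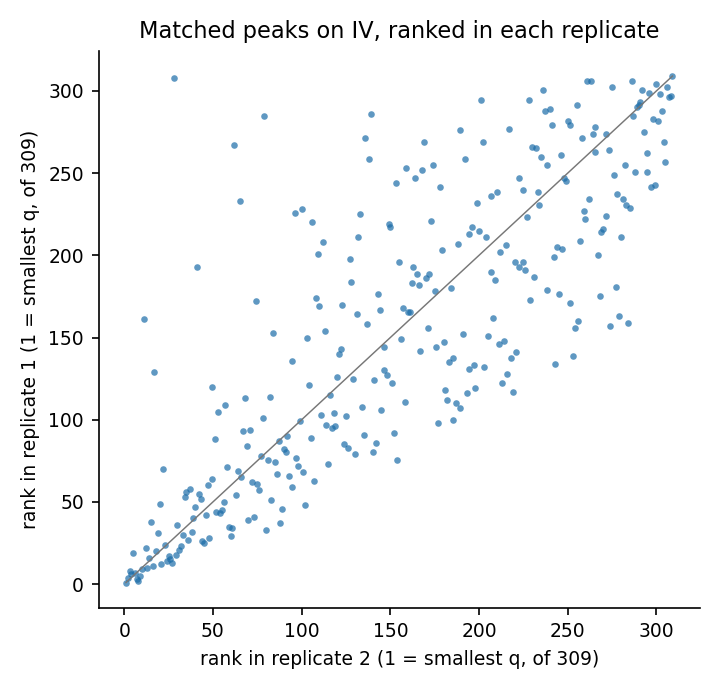
Rank of each of the 309 matched peaks on IV in replicate 1 (vertical axis) against its rank in replicate 2 (horizontal axis), 1 being the smallest q; the line marks equal ranks. Points follow the line (rho 0.81), and those far above it ranked high in replicate 2 and low in replicate 1. Matching took the piece with most shared bases where replicate 1 called a region in pieces, which was not always the strongest. At IV:10934746-10937112 that piece ranked at 169 on IV in replicate 1 and the other at 21.

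The narrowest combined peak on IV was 1 bp and the widest 4876 bp wide, with a median of 380.5 bp (quartiles 266 and 614.5 bp). Replicate 1 had a median of 360 bp (277 and 525 bp, 3 to 2341 bp) and replicate 2 a median of 389.5 bp (268 and 611.5 bp, 1 to 4895 bp). The combined medians were 380.5 bp on IV, 373 bp on III and 367 bp on V. Those on I, II and X were 302, 415.5 and 418 bp. Peaks of 1000 bp or more numbered 57 (8.88%) in the combined list and held 28.6% of the covered bases. They numbered 15 (4.52%) in replicate 1 and 56 (8.81%) in replicate 2. The combined share of such peaks was 4.84% on I, 12.2% on II, 9.52% on III, 9.35% on V and 12.6% on X. They held 22.1% of the covered bases on I, 38.7% on II, 30.3% on III, 32.6% on V and 37.7% on X. Wider peaks had smaller q-values, with a rho between width and −log10 q of 0.63 over the 642 combined peaks and 0.57 over the 332 replicate 1 peaks. The median width was 756 bp in the strongest of the 4 groups and 256 bp in the weakest.

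At the other end, 22 combined peaks (3.43%) were under 50 bp, and none of them had a replicate 1 partner (0%, upper limit 15.4). The share under 50 bp was 5.71% on I, 4.59% on II, 3.02% on III, 6.1% on V and 3.56% on X. Of the 22 on IV, 19 had a replicate 2 partner and 3 had none. The shortest were a 1 bp peak at 7237315, a 2 bp peak at 11148777 to 11148778 and a 3 bp peak at 7676095 to 7676097. Replicate 1 had 4 peaks under 50 bp on IV and replicate 2 had 22. The share with a replicate 1 partner was 16.2% at 50 to 249 bp, 48.9% at 250 to 499 bp, 62.3% at 500 to 999 bp and 87.7% at 1000 bp or more, higher in each wider class.

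**Figure D3:**
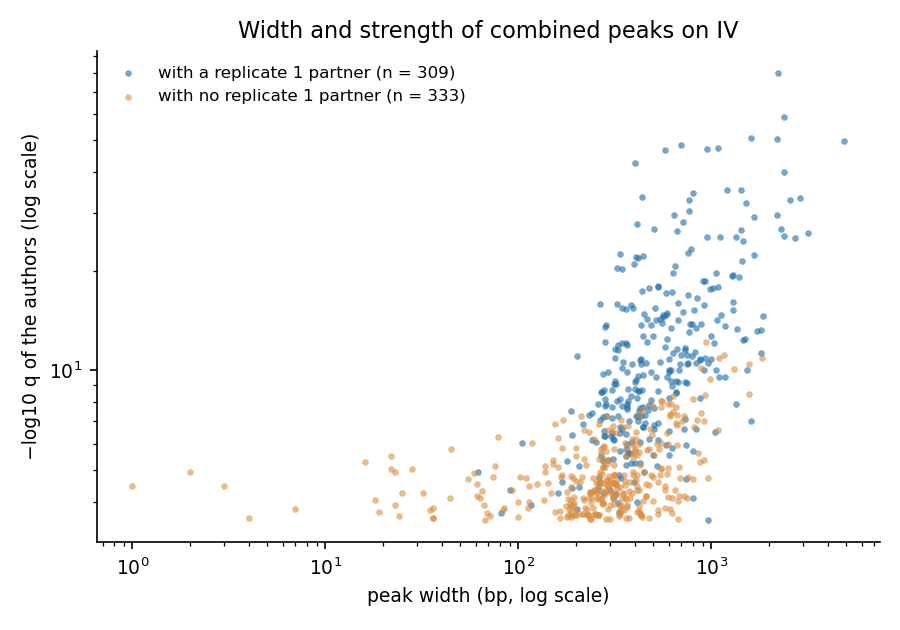
Width in bp (horizontal, log scale) and −log10 of the authors' q (vertical, log scale) of the 642 combined peaks on IV, 309 with and 333 without a replicate 1 partner. Peaks with no partner lie at the low end of the vertical axis, none above 12.2, and include all 22 peaks under 50 bp.

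Peak density was lowest in the right part of IV in all 3 lists, and the combined and replicate 2 lists had their highest density in the central part. The combined list had 36.9 peaks per Mb on IV, 48.4 on III and 36.9 on V. The density was 69.2 on I, 24.3 on II and 39.3 on X. In 3 equal parts of 5.81 Mb, the left part of IV held 216 combined peaks (37.2 per Mb), the central part 262 (45.1 per Mb) and the right part 164 (28.2 per Mb). The central part held 40.8% of the combined peaks (37 to 44.7), 37.3% of the replicate 1 peaks (32.1 to 42.8) and 40.3% of the replicate 2 peaks (36.4 to 44.2), where an even spread would give 33.3%. The combined share in the central part of the called span was 41.2% on I, 42.7% on II, 35.6% on III, 47.5% on V and 35.2% on X. A share above 33.3% was thus not particular to IV. On IV the replicate 1 interval took in 33.3%, and the left and central parts of that list were close, at 118 and 124 peaks (20.3 and 21.4 per Mb). These intervals treat peaks as independent, which neighbouring peaks are not, so they do not test for an even spread. The right share was 25.5% (22.2 to 29.1), 27.1% (22.4 to 32.2) in replicate 1 and 25.9% (22.6 to 29.5) in replicate 2. The right part had the fewest peaks in each of the 3 lists.

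The fewer peaks of the right part were not weaker or narrower by their medians. Their median −log10 q was 6.6, against 5.8 in the central part and 6.03 in the left part, and their median width was 423 bp, against 359 and 387.5 bp. The right part held 27 of the 57 combined peaks of 1000 bp or more, the central part 14 and the left part 16. In replicate 1 the right part also had the highest median −log10 q, at 6.2 against 5.17 in the central and 5.4 in the left part, and 8 of the 15 peaks of 1000 bp or more. Support by replicate 1 was 51.2% in the right part, 44.7% in the central part and 50% in the left part, with overlapping intervals. These differences were not tested.

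Among the 17 full bins of 1 Mb, the combined count ran from 18 to 59 with a median of 38. The fullest bin of the combined list was the ninth, from 8 to 9 Mb, with 59 combined, 28 replicate 1 and 59 replicate 2 peaks. The emptiest was the bin from 15 to 16 Mb, with 18 combined, 9 replicate 1 and 18 replicate 2 peaks. Replicate 1 counts ran from 9 to 29, the highest in the bin from 11 to 12 Mb, and their order over the 17 bins followed that of replicate 2 (rho 0.85, a description of libraries called by 1 method). The share of combined peaks with a replicate 1 partner ran from 34.1% (15 of 44) between 7 and 8 Mb to 56.4% (22 of 39) between 13 and 14 Mb. The bin from 11 to 12 Mb had 19 of the 161 peaks of the strongest group by q, more than any other bin, and the bin from 7 to 8 Mb had 3, the fewest of any full bin, although it held 44 peaks.

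**Figure D4:**
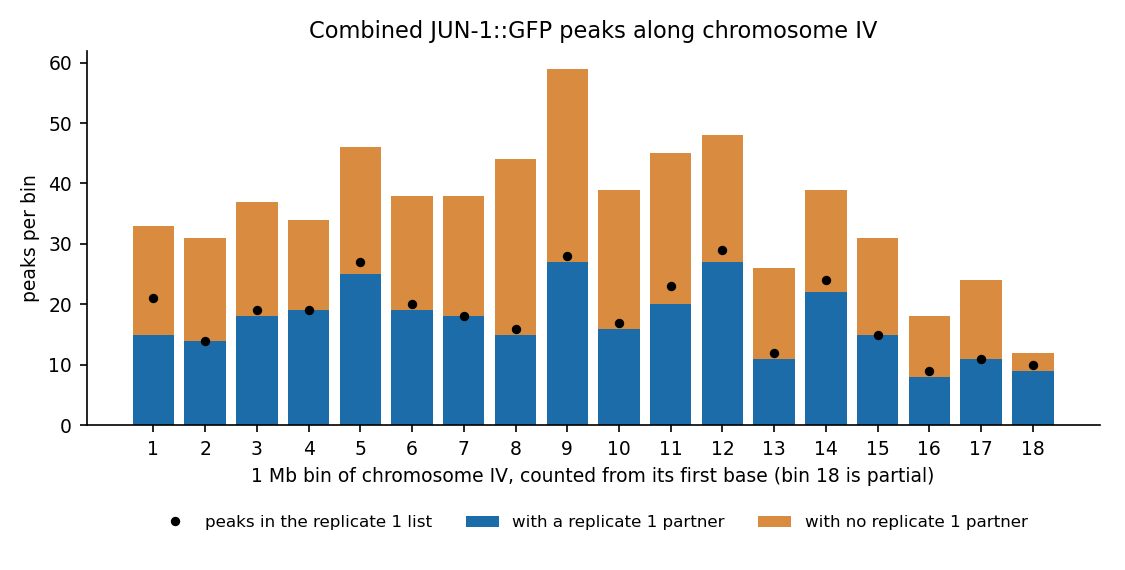
Combined peaks on IV in bins of 1 Mb (horizontal axis, bin number from the first base), split into those with and without a replicate 1 partner, with the number of replicate 1 peaks as points; the vertical axis counts peaks. The ninth bin is the fullest with 59 peaks and bin 16 the emptiest full bin with 18, and the points follow the height of the columns.

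On a finer scale, 18 of 174 full windows of 100 kb (10.3%) held no combined peak, and the median window held 3. Of these 18 windows, 11 were in the right part, 1 in the central and 6 in the left. In replicate 1, 44 windows were empty, with 22 in the right part, 9 in the central and 13 in the left. The fullest window, from 13300001 to 13400000, held 13 combined, 9 replicate 1 and 13 replicate 2 peaks and was the fullest of all 3 lists. It was followed by windows starting at 4400001 and 10300001, with 12 combined peaks each.

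Neighbouring peaks on IV were separated by a median of 11.4 kb in the combined list, 12 kb in replicate 2 and 25.7 kb in replicate 1. The median gap between combined peaks was 8.22 kb on III and 8.9 kb on V. It was 5.55 kb on I, 19.1 kb on II and 12.7 kb on X, and these differences were not tested. On IV 243 combined peaks (37.9%, 34.1 to 41.7) had a neighbour within 2000 bp, counted from the last base of a peak to the first base of the next. No gap on IV was shorter than 206 bp in the combined list or in replicate 2, or 208 bp in replicate 1, and none on any chromosome was under 200 bp.

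Clusters were defined as runs of 3 or more peaks with gaps of at most 2000 bp. The combined list had 25 of them on IV, holding 91 peaks (14.2%, 11.6 to 17.1), besides 76 pairs and 399 single peaks. The share of peaks in clusters was 14.2% on IV, 19.2% on III (16.3 to 22.4) and 24.5% on V (21.5 to 27.7). The share was 25.3% on I, 12.4% on II and 14.2% on X. In replicate 1 it was 10.5% on IV (7.45 to 14.4), 9.04% on III and 16.6% on V (13 to 20.7), so the order of IV and III was not the same in both lists, and no difference between chromosomes was tested. Clusters of 3 peaks numbered 15, of 4 peaks 6, of 5 peaks 2 and of 6 peaks 2. Their lengths ran from 2001 to 9731 bp with a median of 4601 bp. They were spread along IV, 9 in the left part, 9 in the central and 7 in the right. Each of the 25 held at least 1 peak with a replicate 1 partner, and in 18 at least 2 peaks had one, whereas in only 2 did every peak. Clustered peaks had a replicate 1 partner in 53 of 91 cases (58.2%, 47.4 to 68.5), other combined peaks in 256 of 551 (46.5%, 42.2 to 50.7). Clustered peaks were also wider (median 599 against 362 bp) and stronger (median −log10 q 7.69 against 5.82), and the part of strength in their support was not tested.

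The 5 clusters described next have the most peaks, and the fifth is the shortest of the 6 clusters of 4 peaks, by the rule for ties. Their members were unequal. The cluster at IV:8822277-8830931 had 6 peaks over 8655 bp, 3 with a replicate 1 partner. Its −log10 q ran from 3.91 to 25.3, the strongest peak lying at 8826010 to 8826955. The cluster at IV:4018913-4028643 had 6 peaks over 9731 bp, 4 with a replicate 1 partner, of 420 to 1078 bp each, and began 2854 bp after the broad named region that ends at 4016058.

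The cluster at IV:10328424-10333310 packed 5 peaks into 4887 bp, of which they covered 68.3%, and 3 of them had a replicate 1 partner. The cluster at IV:13388548-13395585 had 5 peaks over 7038 bp and opened with a named region. Replicate 1 had 6 peaks in it, and 4 of its 5 combined peaks had a partner there, all but the 16 bp peak at 13394413 to 13394428. The cluster at IV:7046810-7050093 had 4 peaks over 3284 bp, 2 with a replicate 1 partner and 3 with a replicate 2 partner. In 24 of the 25 clusters every peak had a replicate 2 partner, and this was the exception. Of the 20 named regions 5 lay in clusters.

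Long stretches of IV had no peak at all. In the combined list 34 gaps reached 100 kb, and together they spanned 5.15 Mb, or 29.6% of the called span. Such gaps made up 9.97% on I, 49% on II, 13.9% on III, 34.3% on V and 21.5% on X. By the midpoints of the 34 gaps on IV, 15 lay in the right part (2.38 Mb), 12 in the left (1.87 Mb) and 7 in the central (0.896 Mb). Replicate 1 had no peak wholly inside 31 of the 34, and replicate 2 none inside 32. Replicate 1 itself had 52 gaps of 100 kb or more on IV, and replicate 2 had 34.

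The longest gap, from 4750391 to 5083014, ran for 332.6 kb with no peak in either replicate. It began right after the named region at IV:4749814-4750390, the ninth strongest on IV, so a strong peak bordered the longest empty stretch. The next gaps were 15050361 to 15310903 (260.5 kb), which held 1 peak of replicate 1, and 13395586 to 13645700 (250.1 kb), which held none and followed directly on the 5 peak cluster ending at 13395585. The fourth was 16181353 to 16382029 (200.7 kb), which held 1 peak of replicate 2, and the fifth 5389066 to 5582182 (193.1 kb), which held none. Thus 3 of the 5 were in the right part. In replicate 1 the longest gap was 533.7 kb, from 15646924 to 16180671, in which the combined list had 7 peaks.

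**Figure D5:**
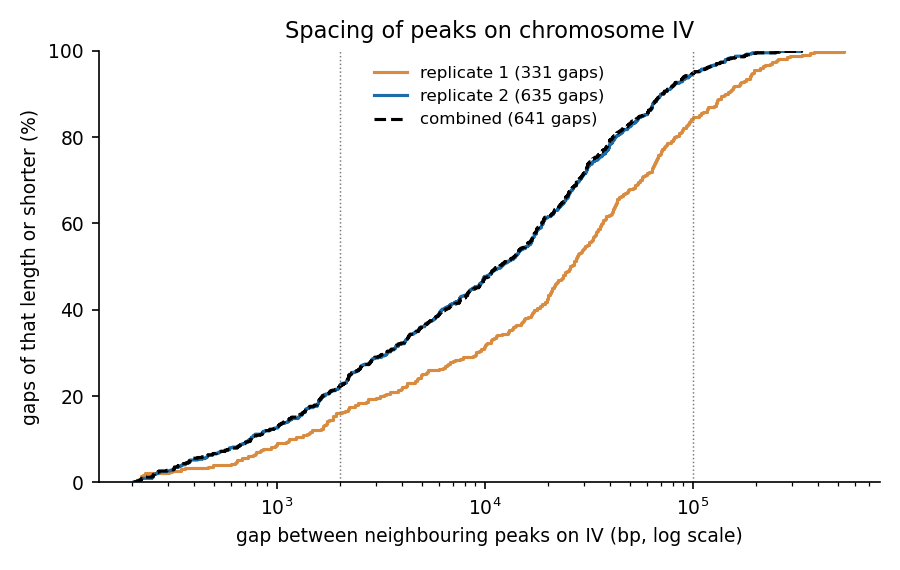
Share of gaps between neighbouring peaks on IV (vertical axis, %) that are no longer than the length on the horizontal axis (bp, log scale), for replicate 1 (331 gaps), replicate 2 (635) and the combined list (641); dotted lines mark 2000 bp and 100 kb. The curves of replicate 2 and the combined list lie close together, with medians of 12 and 11.4 kb, and that of replicate 1 lies to their right, with a median of 25.7 kb.

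Peaks without a counterpart were mostly weak, with a few broad exceptions. Of the 333 combined peaks with no replicate 1 partner, the strongest, at IV:5607240-5608176, ranked at 115 on IV (937 bp, q = 6.97e-13) and had the same ends and q in replicate 2. It was the last of 4 peaks in a cluster where another had a replicate 1 partner. The next were IV:11819778-11820937 (1160 bp, q = 7.41e-12), IV:762905-763995 (1091 bp, q = 1.24e-11), IV:5984752-5986575 (1824 bp, q = 1.3e-11) and IV:16601268-16602837 (1570 bp, q = 3.49e-11). All but the first were over 1000 bp wide, so these were broad and of moderate strength in the combined list. The peak at IV:762905-763995 is a special case, as replicate 2 had 1 peak there, from 761582 to 764008 (2427 bp, q = 1.77e-34, rank 15 on IV), which the combined list held as 2 peaks, and the first of these had a replicate 1 partner. Of the 333, 66 (19.8%) had a replicate 1 peak within 2000 bp and 23 within 500 bp.

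The 10 replicate 1 peaks on IV with no replicate 2 partner were short, from 27 to 447 bp with a median of 181 bp, and the strongest of them ranked at 208 of 332. That one, at IV:3160776-3161222 (447 bp, q = 1.39e-05), overlapped the combined peak at IV:3160345-3161301 (957 bp), which had the largest combined q on IV, 0.000305. The peak at IV:11446359-11446457 (99 bp, q = 5.84e-05) overlapped the combined peak at IV:11446367-11446534 (168 bp). The other 8 had no combined partner, and the strongest of those were at 15090838 to 15090913 (76 bp), 17093739 to 17093915 (177 bp) and 109052 to 109120 (69 bp).

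The 16 combined peaks with no partner in either replicate had q-values from 2.21e-05 to 0.000281 and widths from 1 to 530 bp. The strongest was IV:11021502-11021793 (292 bp), which ranked at 439 of 642. It was followed by the 1 bp and 3 bp peaks named above, which share a q of 3.48e-05, and by IV:7046810-7047172 (363 bp), which belongs to a cluster, and IV:6565019-6565331 (313 bp), both with a q of 8.28e-05. Conversely, 12 replicate 2 peaks on IV had no combined partner, with widths of 1 to 590 bp and ranks of 340 or lower among the 636.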

How the data were processed

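ChIP DNA from L4 worms was sequenced by the authors, and 3 peak lists were used, 1 for each of 2 ChIP replicates and 1 combined. Per the file headers, positions are in WormBase WS180, and the source column names PeakSeq. The authors deposited a q-value for each peak; how reads were aligned and filtered, the PeakSeq version and q limit, whether the input served as control and how replicates were combined is not given in the sources used here. The lists carry no read counts, so depth is unknown.

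Peaks were counted as shared at 1 bp of overlap, and matched one to one by shared bases for values. Bins and the 3 equal parts of the span used peak midpoints. No test was run, since peaks of 1 list are not replicates. Overlap, cluster and gap functions were checked on simulated lists. Python 3.11.15, numpy 2.4.6, scipy 1.17.1, pandas 2.3.3 and matplotlib 3.10.9 were used. Named regions are the 20 strongest found in both replicates, the 5 widest, the 5 clusters with most peaks (ties to the shorter), the 5 longest gaps and the 5 strongest of each kind without a partner. The chromosome, these rules and the alternatives (overlap, short peaks, stronger 50% of peaks, each replicate alone, cluster gap, start of the span) were chosen with earlier results of these data known.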

Additional observations from a re-analysis of the deposited data

How the results depend on the processing

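The 41 alternatives over 9 results include those of the rank correlation, which had no limit and were all counted as changed. Of the 41, 24 stayed within the main value's 95% interval, within 1.5 times the main count or, for the median width, within the spread of the replicates (SD 20.9 bp). The share of IV peaks in the central part did so under all 6 of its alternatives, at 37.3% (without replicate 2) to 41%. Several of these could hardly differ, since the replicate 2 list, the list without short peaks and the span from base 1 use nearly the same peaks. The interval of the share took in an even 33.3% without replicate 2, among peaks in both replicates (32.3 to 43.5) and in the better-ranked 50% (33 to 43.9), each a smaller list. It treats peaks as independent and is no test of an even spread. Replicate 1 support of the combined peaks was 39.7% with an overlap of 50% of both peaks and 81.3% in the better-ranked 50% of peaks, where the share found in replicate 2 was 100% and the median width 546 bp. Among combined peaks in both replicates, density was 17.6 per Mb, the share of the list on IV 17.6%, the share in clusters 7.49%, the median width 484 bp and the gaps of 100 kb or more 53, with fewer peaks by construction. Leaving out a replicate meant taking the other replicate's own list, since peaks were not called again. It gave a density of 19.1 (without replicate 2) to 36.5 per Mb, 15.4% to 17.8% of the list on IV, 10.5% to 15.1% of peaks in clusters, median widths of 360 to 389.5 bp and 34 to 52 long gaps. The clustered share was 4.67% with gaps of up to 1000 bp and 29.6% with gaps of up to 5000 bp. The rank correlation of the replicates was 0.88 over the 258 peaks sharing 50% of both and 0.81 without peaks under 50 bp. The cause of these changes was not tested, nor was the part of the smaller lists in them. No paired analysis was possible because only ChIP libraries, which form 1 group, gave peaks. Unknown read depth limits every statement on missing peaks.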

Other observations

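Many peaks on IV carried exactly the same q as another peak of their list. In the combined list 171 of 642 peaks (26.6%) shared their q with at least 1 other IV peak, in replicate 1 79 of 332 (23.8%) and in replicate 2 148 of 636 (23.3%), with at most 4 peaks on 1 value in each list. The q-value gives no order among such peaks.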
